A study of Drosophila melanogaster with 27 samples.

Results

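Autophagy-related (Atg) and vacuolar protein sorting (Vps) genes of Drosophila melanogaster were examined for monomethylated lysine 20 of histone H4 (H4K20me1) in wing imaginal discs. The members were chosen by symbol, as the protein-coding genes of the RefSeq table whose name is Atg or Vps followed by a digit. This gave 47 genes, 20 Atg and 27 Vps, of the 13922 that code for proteins on the arms of chromosomes X, 2 and 3 and on chromosome 4. Families were picked on the overlap of their gene bodies with H4K20me1 peaks, so that overlap is given as a description, with no test. The values come from the authors' peak list for Oregon-R, a wild-type strain, in which CUT&RUN libraries made with H4K20me1 antibody (n = 3) were set against libraries made with no primary antibody (n = 3). In CUT&RUN a nuclease tethered by the antibody cuts out the bound chromatin, and the freed DNA is sequenced. All these libraries came from female wandering larvae of instar 3 raised at 25 °C, with 20 discs in each. The study also profiled Set8 mutants, histone H4 lysine 20 mutants and their controls, and these 21 libraries in 8 groups were not analysed here.

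The list holds 6914 peaks on the dm6 build, which cover 17.5 Mb, and gives each peak's start, end and width with no height and no value per library. No error between libraries can therefore be put on any value below, and the read depth is unknown. Genes with no peak may still hold signal that stayed under the authors' threshold. The list gives no expression, so the labelled tissue was not checked against markers. The sequence, strand and exons of the genes were not used here.

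Macroautophagy encloses cytoplasm in a double membrane, the autophagosome, which fuses with the lysosome. Atg proteins act in sequence. The Atg1 kinase complex starts the process, a phosphatidylinositol 3-kinase complex marks the membrane, Atg9, Atg2 and Atg18 bring lipid, and conjugation systems attach the ubiquitin-like proteins Atg12 and Atg8. Vps proteins were named for yeast mutants that missort vacuolar enzymes, and they form the ESCRT complexes that bud vesicles into endosomes, the HOPS and CORVET tethers, retromer, and the GARP and EARP tethers. In the fly these genes serve the breakdown of larval tissues and the endosomal control of signalling receptors in discs. H4K20me1 is placed by Set8 and lies largely over gene bodies.

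A peak touched the body of 36 of the 47 genes by at least 1 bp, which is 76.6%, whereas 38.3% of all protein-coding genes were touched. Most of these contacts were partial. Only 11 members, or 23.4%, were covered over at least 50% of the body, against 18.3% of all protein-coding genes, a share close to that background. Among genes with a peak, the median covered share was 29.9% in the members and 46.9% in all protein-coding genes. Over all genes, touched or not, the median was 16.6% in the members and 0% in all protein-coding genes. In summed sequence, peaks covered 21.2% of the members' bodies and 18.9% of all protein-coding bodies. The members were thus touched more often than genes in general, while their summed covered share was close to the general one.

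**Figure D1:**
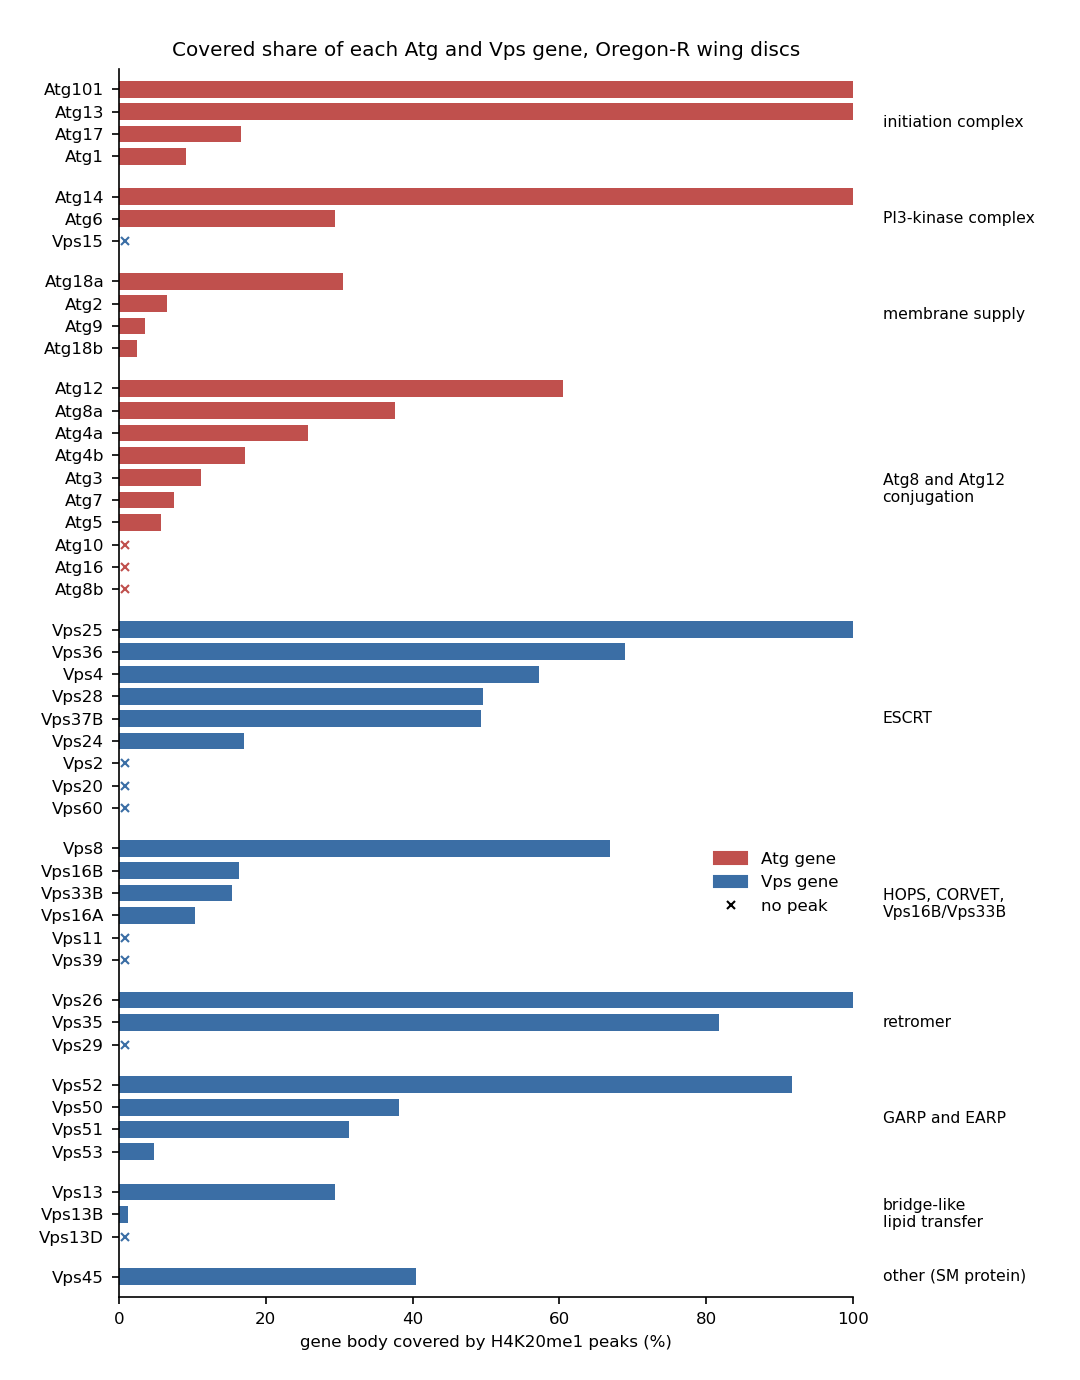
Share of each gene body covered by H4K20me1 peaks (x axis, percent) for the 47 Atg (red) and Vps (blue) genes, grouped by role, with a cross where no peak touched the body. Each bar is 1 value from the authors' peak list, with no replicate error. Within most roles the bars run from 0% or nearly so to well over 50%, as in retromer, where Vps26 stands at 100% and Vps29 has no peak.

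The genes of the initiation complex all had peaks (against 38.3% of all protein-coding genes), but the extent of coverage differed widely. Atg13 (3R 8349815 to 8352817), the adaptor that links the Atg1 kinase to its partners, lay wholly inside a 3650 bp peak that touched no other protein-coding gene. Atg101, which stabilises Atg13, was also covered to 100%, but it is nested in S6KL, which shares all 1850 bp of it and was itself covered to 24.2%. Atg17, the fly counterpart of mammalian FIP200, is a scaffold of the same complex. A 1550 bp peak and a 150 bp peak lay inside this 10218 bp gene, and together they covered 16.6%. The kinase gene Atg1 is the longest member at 20688 bp and was covered to 9.18%. Most of that, a 1750 bp peak, lies in CG42709, which is nested in Atg1, and outside the nested gene the covered share of Atg1 was 1.01%. The small and long genes of this complex thus stood at opposite ends of the range.

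The phosphatidylinositol 3-kinase complex makes the lipid that later Atg proteins bind. Atg14, the subunit that directs it to autophagosomes, was covered to 100% by a 22.7 kb peak that also held Pdhb, alpha-Man-Ib and parts of Bicra and yem. Atg6, the beclin homologue, was covered to 29.4%, and that came from the end of a 10350 bp peak running over spas, Rox8 and CG5986. Vps15 (3R 9240757 to 9245869), the regulatory subunit, had no peak in its 5113 bp, and the nearest lay 1456 bp away. The catalytic subunit gene Pi3K59F, the fly Vps34, is not a member by symbol and had no peak either. No gene of the core complex held a peak of its own that ran over most of its body.

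The genes of membrane supply had the thinnest coverage among the Atg groups. All 4 were touched (against 38.3% of all protein-coding genes), with a median covered share of 5.04%. Atg2, which encodes a bridge-like lipid transfer protein, held a pair of 250 bp peaks that covered 6.51%. Atg9, the membrane-spanning lipid scramblase, was touched over 101 bp by a 1600 bp peak that lies mostly in CG7747, and 3.57% of the gene was covered. The Atg18 proteins bind phosphatidylinositol 3-phosphate, and their genes are described with the paralogues.

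In the conjugation systems, 7 of 10 genes had a peak (70%, against 38.3% of all protein-coding genes). Only Atg12 was covered over at least 50% (10%, against 18.3% of all). Atg12, a ubiquitin-like modifier, was covered to 60.5% by a 1150 bp peak shared with the respiratory gene ND-SGDH. The gene of its activating enzyme, Atg7, was touched over 344 bp at its high-coordinate end by a 650 bp peak that runs into Sec6. Atg5, the protein to which Atg12 is joined, has a gene that lies wholly within the 124709 bp gene CG1677 and was covered to 5.68%. Atg3, the conjugating enzyme for Atg8, held a single 200 bp peak, which covered 11.1%. No peak lay in Atg10, the conjugating enzyme for Atg12, nor in Atg16, the partner of the Atg12 and Atg5 conjugate, although Atg16 spans 7821 bp. The genes of the Atg12 branch therefore included the most covered gene of the group as well as a pair without any peak.

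Of the 9 member genes of the ESCRT machinery, 6 had a peak (66.7%, against 38.3% of all protein-coding genes). At least 50% of the body was covered in 3 (33.3%, against 18.3% of all). Vps28 and Vps37B belong to ESCRT-I, which gathers ubiquitinated receptors, and were covered to 49.6% and 49.4%. Of ESCRT-II, Vps25 was covered to 100% and Vps36 to 69.0%, while the remaining gene, lsn, the fly Vps22, is not a member by symbol and had no peak. Loss of ESCRT-II genes is known to make disc epithelia overgrow. Vps25, at 730 bp, lay inside a 12750 bp peak with all of Cirl and 81.8% of beta3GalTII, and the peaks over Vps28, Vps36 and Vps37B also ran into a neighbour. The peaks on these 4 members were therefore all shared with other genes.

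ESCRT-III proteins form the filaments that cut vesicles off. Of their genes, Vps24 was touched by 3 short peaks of 150 to 350 bp that together covered 17.0%, and outside MP1, which is nested in it, 6.12%. Vps2, Vps20 and Vps60 had no peak, with the nearest at 72, 459 and 15175 bp. The ESCRT-III genes under other names, shrb, Chmp1 and CHMP2B, also had none. The next counts cover members and these partners, in a grouping drawn up after the values were seen. A peak touched 1 of 7 ESCRT-III genes, or 2 of 8 with Vps4, against 38.3% of all protein-coding genes. In ESCRT-I and ESCRT-II a peak touched 5 of 6 genes. Most genes of both sets are short. Those of ESCRT-III without a peak span 855 to 1769 bp, whereas the touched genes are longer, Vps24 at 3513 bp and Vps4 at 3406 bp. Those of ESCRT-I and ESCRT-II span 730 to 2292 bp. The part of length in this contrast was not tested. Of all protein-coding genes under 2 kb, 24.6% had a peak. Vps4, the ATPase that takes the filaments apart, had peaks of 850 and 1100 bp in its 3406 bp body that touched no other gene and covered 57.3%.

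Tethering genes also differed within a complex. Vps8, the subunit particular to CORVET, was covered to 66.9% by a 3250 bp peak that extends into Bulli, which encodes a subunit of the exchange factor for Rab7. Vps16A, shared by HOPS and CORVET in the fly, was touched at its low-coordinate end by a 600 bp peak reaching from TrpRS and was covered to 10.4%. Vps11 and the HOPS subunit gene Vps39 had no peak. The nearest peak to Vps11 was 31505 bp away, the greatest distance among the members, and Vps11 lies at 3L 23147656 to 23150499. The other HOPS subunits have eye-colour names. Of these, dor, the fly Vps18, was covered to 100% by a peak of 34450 bp. Mur2B and CG3740 overlap dor, so that peak touches them too. No peak lay in car or lt. Vps33B, related to car, and its partner Vps16B each held 1 short peak of their own, which covered 15.4% and 16.3%.

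Retromer returns receptors from endosomes, and its genes were the most covered group in summed sequence at 77.3% over 3 genes. Vps35 (2R 22185972 to 22189886), the largest subunit, held a 3200 bp peak that lay within the gene and touched no other protein-coding gene, and 81.7% of the body was covered. Vps26 was covered to 100% by a 14.8 kb peak that begins 2 bp before the gene and continues over CG14817, CG14805, CG14818, Coa8 and 86.7% of trr, a histone methyltransferase gene. Vps29 had no peak, but the nearest one ended 15 bp away. Peak boundaries lie on a 50 bp grid, so that gap is smaller than the step of the list.

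All 4 member genes of the GARP and EARP tethers had a peak, against 38.3% of all protein-coding genes. These tethers act in traffic from endosomes to the Golgi and the cell surface. Vps52 was covered to 91.7%, Vps50 to 38.1%, Vps51 to 31.3% and Vps53 to 4.78%, the last by a single 150 bp peak, the narrowest width in the list. The remaining GARP gene, scat, the fly Vps54, had no peak. Vps45, a Sec1/Munc18-type protein of endosomal fusion, was covered to 40.4% by a 5400 bp peak that also covers MBD-like and CG9393 completely.

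Over the whole body, paralogues were covered to different extents in the Atg8, Atg18 and Vps13 sets and to closer extents in the Atg4 and Vps16 sets. Atg8a, the main lipid-linked Atg8 of fly tissues, held a 1300 bp peak that began 623 bp from its low-coordinate end and covered 37.6% of its 3461 bp. Atg8b is a 654 bp gene with known functions in the male germline, and it had no peak within 7359 bp. In the Atg18 pair, Atg18a was covered to 30.5% by 1300 bp of peak, whereas Atg18b, longer at 8251 bp, had only a 200 bp peak (2.42%) that also lies in CG8679.

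The Atg4 proteases process Atg8, and their genes were closer to each other over the whole body. Atg4a held a 1150 bp peak over 25.7% of its body and Atg4b a 550 bp peak over 17.2%, each within the gene and touching no other. Atg4a shares 2290 bp with CG4629, and its share outside that gene was 52.8%. Atg4b shares 207 bp with Tmtc4, and its share outside that gene was 18.35%. The Atg4 pair was thus not close in sequence that no other gene shares. Vps16A and Vps16B, covered to 10.4% and 16.3%, had short peaks in different places, at the end of Vps16A and in the interior of Vps16B. The Vps13 genes encode bridge-like lipid transfer proteins of similar size, from genes of 12230 to 13867 bp. Vps13 was covered to 29.4%, of which most was the part of a 10.8 kb peak that continues over all of blow, Vps13B to 1.23% by a single 150 bp peak, and Vps13D not at all.

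**Figure D2:**
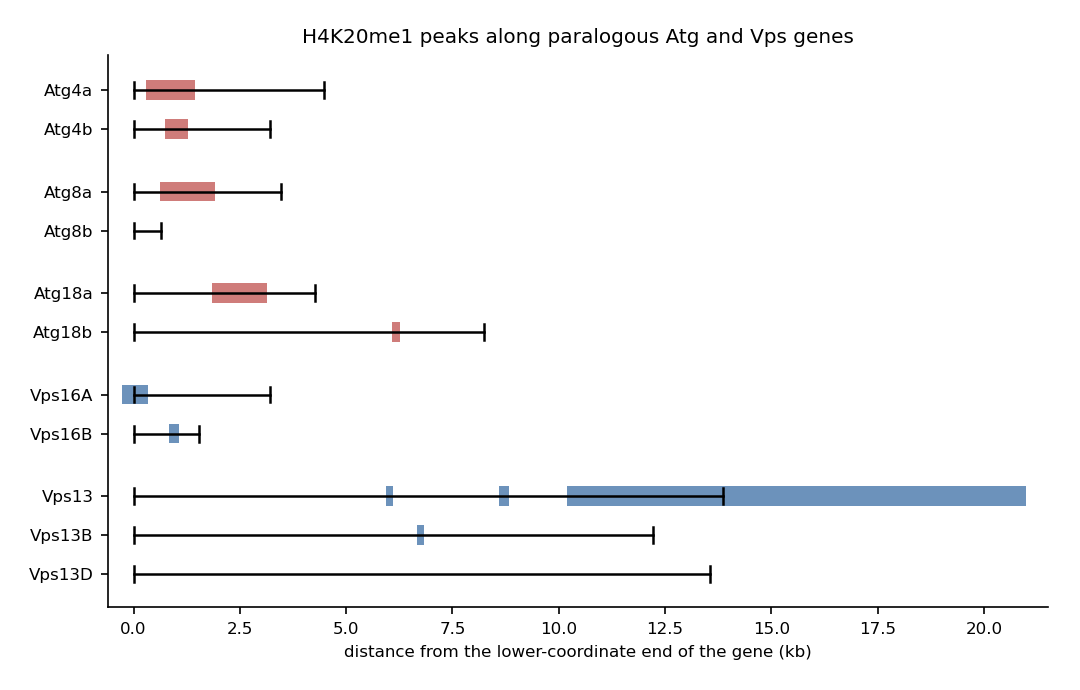
H4K20me1 peaks (coloured boxes, red for Atg and blue for Vps) along 11 paralogous genes drawn to scale as black lines, in kb from the end with the lower coordinate, since strand was not used. Atg8a and Atg18a each hold a 1300 bp peak, Atg8b and Vps13D hold none, and the large peak of Vps13 runs past the gene's end.

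Compared by family over all lengths, more of the Atg than of the Vps genes were touched. The covered share was higher in Vps genes by most measures, but not in every length class. The exceptions over all lengths were the share of genes covered over at least 90%, which rested on 3 genes in each family, and complete coverage. The latter was seen in 3 Atg and 2 Vps genes. These differences were not tested. A peak touched 17 of 20 Atg genes (85%) and 19 of 27 Vps genes (70.4%). At least 50% of the body was covered in 4 Atg genes (20%) and 7 Vps genes (25.9%), against 18.3% of all protein-coding genes. At least 90% was covered in 3 Atg genes (15%) and 3 Vps genes (11.1%), against 6.97% of all protein-coding genes. Over all genes of each family, the median covered share was 13.9% in Atg genes and 17.0% in Vps genes. Among the touched genes alone it was 17.2% in Atg genes and 40.4% in Vps genes. Coverage under 10% accounted for 6 of the 17 touched Atg genes (35.3%) and 2 of the 19 touched Vps genes (10.5%). The share among all touched protein-coding genes was 16.5%. Atg genes were also longer, with a median of 3404.5 bp against 2714 bp in Vps genes, and the part of length in these differences was not tested. Under 2 kb (5 Atg and 9 Vps genes), the median covered share over all genes was 29.4% in Atg and 16.3% in Vps genes. The summed share there was 44.3% and 29%. From 2 kb to under 5 kb (9 and 14 genes), the medians were 25.7% and 34.7%, and the summed shares 31.3% and 40.2%. At 5 kb or more (6 and 4 genes), the medians were 6.10% and 0.61%, and the summed shares 7.58% and 9.44%. In summed sequence, 17.3% of Atg bodies and 25.1% of Vps bodies were covered.

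Gene length bears on these counts, because a rule of 1 bp favours long genes. Among genes under 2 kb, 9 of 14 members had a peak (64.3%), against 24.6% of all protein-coding genes of that length. From 2 kb to under 5 kb, it was 20 of 23 members (87.0%), against 46.6% of all protein-coding genes. At 5 kb or more, it was 7 of 10 members (70.0%), against 54.7% of all. The excess over the background was thus seen below 5 kb and was smaller above it. At least 50% of the body was covered in 4 of 14 members under 2 kb (28.6%), against 12.3% of all protein-coding genes of that length. From 2 kb to under 5 kb it was 7 of 23 members (30.4%), against 23.6% of all, and at 5 kb or more 0 of 10 members, against 23.7% of all. At this level the members' share was thus above the background under 2 kb, close to it from 2 kb to under 5 kb and below it in the longest class. These counts are small and the differences were not tested. The 10 long members, such as Atg1, Atg17, Vps13B and Vps13D, had 8.35% of their summed sequence covered, against 18.5% in all genes of that length.

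**Figure D3:**
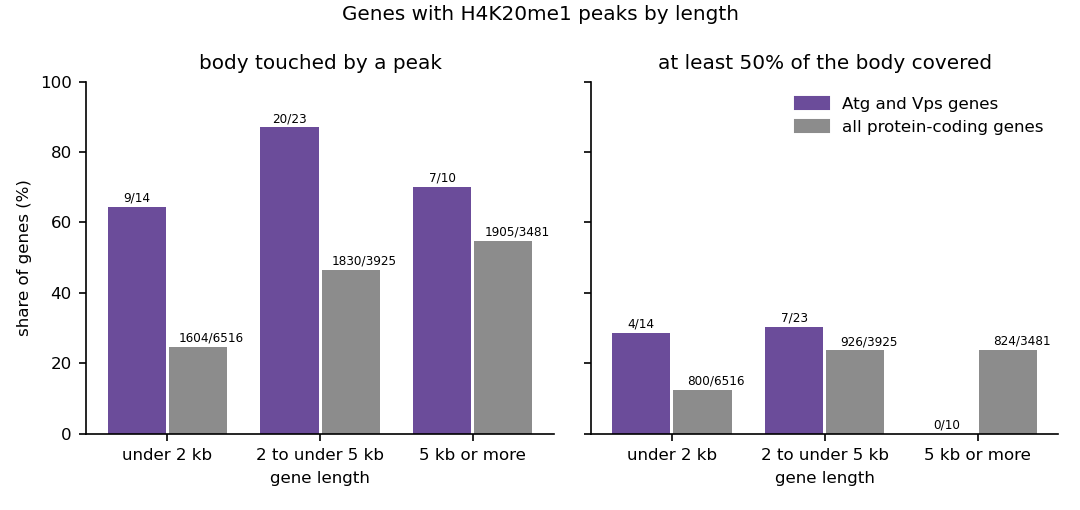
Share of genes (y axis, percent) touched by an H4K20me1 peak (left panel) or covered over at least 50% (right panel) in 3 classes of gene length, for Atg and Vps genes (purple) and all protein-coding genes (grey), with counts above the bars. Members were touched more often in every class, by the least at 5 kb or more, where 0 of 10 members reached 50% coverage.

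Taking the widest peak on each touched gene, the median width was 1325 bp in the members and 2800 bp in all protein-coding genes. In that measure a broad peak counts again for each gene it touches. Counted once per peak, the median width was 1100 bp for the 45 peaks on members and 1100 bp for all 6914 peaks. At the upper end, 6 of the 47 members (12.8%) lay under a peak of 10 kb or more, against 4.32% of all protein-coding genes. These members were Atg14, Atg6, Vps26, Vps25, Vps28 and Vps13. In all 6 cases another gene filled more of the peak than the member did, for example lig beside Vps28 and Cirl beside Vps25. Each of the 6 peaks also covered at least 1 other protein-coding gene completely.

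**Figure D4:**
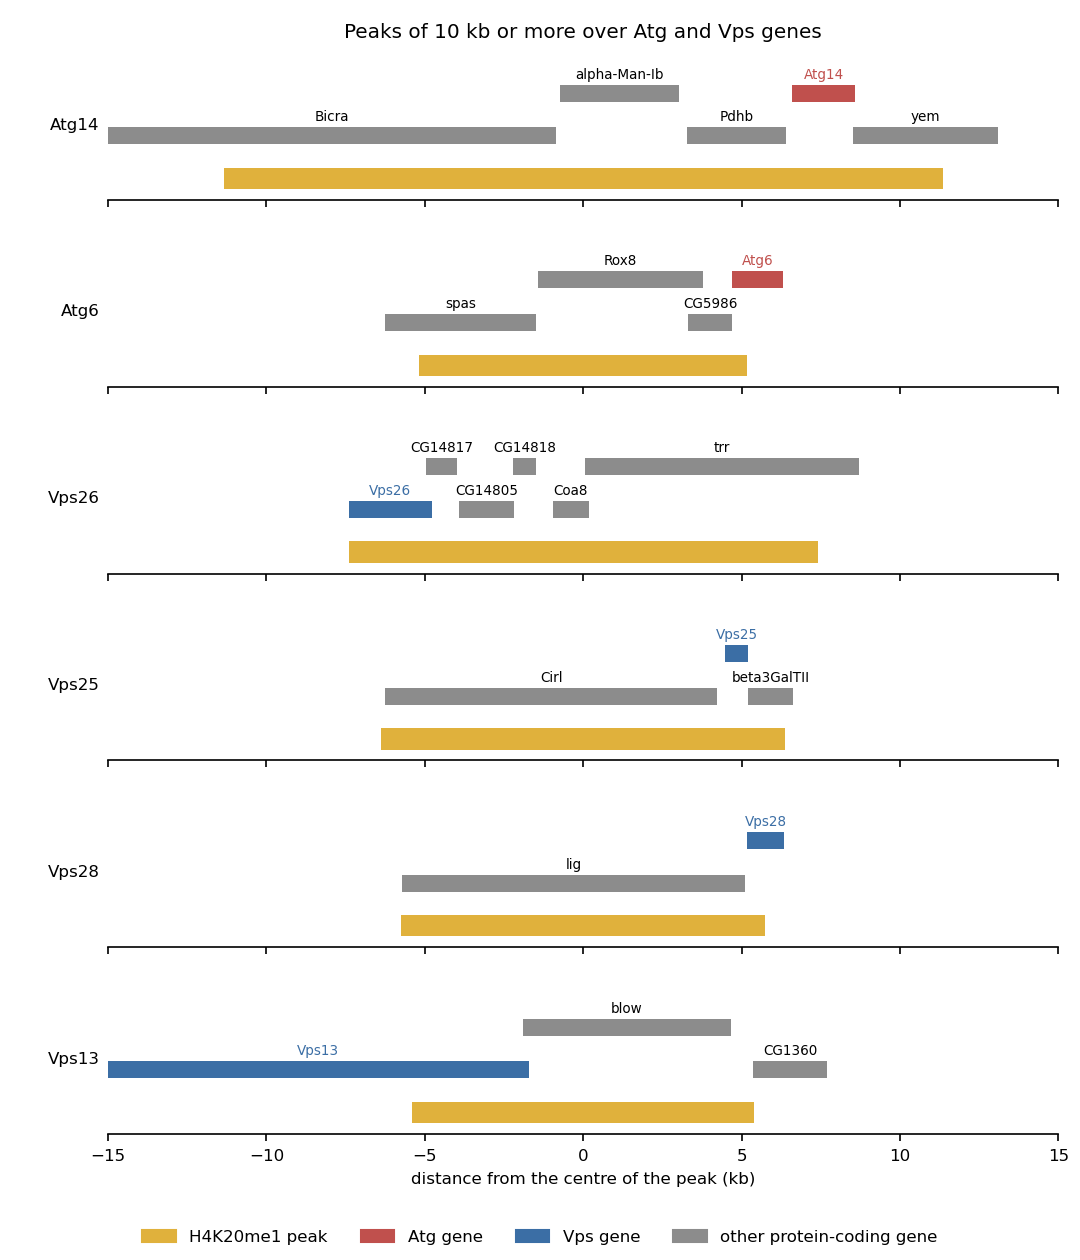
The 6 peaks of 10 kb or more that touch a member (gold), with the member in red (Atg) or blue (Vps) and other protein-coding genes in grey, in kb from the centre of each peak. Genes are staggered on rows for legibility, and Bicra and Vps13 run past the left edge. In each case except Vps13 the member takes up a small stretch near an end of the peak.

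Sharing was common in the rest too. A peak that touched the member and no other protein-coding gene was present in 19 members, which is 52.8% of the 36 with a peak, against 46.6% of all protein-coding genes with a peak. The other 17 were touched only by shared peaks, so that the mark there cannot be assigned to the member alone. Such peaks still lay to different extents on sequence of the member that no other gene shares, over 92.1% of it in Vps52 and 0.98% in Atg18b. Among these 17 members were Atg101, Atg14, Vps25 and Vps26, which is 4 of the 5 genes covered to 100%. Of the 47 members, 22 (46.8%) overlap another protein-coding gene, against 41.4% of all protein-coding genes.

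The interior and the ends of the members were covered to a similar extent, and the difference was not tested. In 27 members of at least 2 kb with a peak, peaks covered on average 35.8% of the middle 50% of the body and 34.4% of the outer 25% at each end. Over all protein-coding genes of that length with a peak, the averages were 52.3% in the middle and 42.3% at the ends. The middle was more covered in 13 members, such as Atg18a, Vps51 and Vps35, and less in 11, such as Vps4, Vps50 and Atg17, against 2175 and 1323 of the 3735 protein-coding genes of that length with a peak.

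The 11 members without a peak were often close to one. Their median distance to the nearest peak was 1456 bp, against 7585 bp over all protein-coding genes without a peak. Vps29, Vps2 and Vps20 lay within 500 bp of a peak (27.3%, against 8.42% of all protein-coding genes without a peak). Vps13D lay at 548 bp, and Vps39, Vps15 and Atg16 within 2 kb. Atg8b, Vps60, Atg10 and Vps11 were farther away, from 7359 to 31505 bp. At the other side of the rule, the smallest overlaps were those of Atg9 (101 bp), Vps13B and Vps53 (150 bp each) and Atg3 and Atg18b (200 bp each). Around the 50% level, Vps4 lay just above at 57.3% and Vps28 and Vps37B just below at 49.6% and 49.4%.

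Partners known under other names were looked up from a list of 38 symbols, which held alternative spellings of some genes, and 32 symbols were found. A peak touched 21 of the 32 (65.6%), against 38.3% of all protein-coding genes, and 10 (31.2%) were covered over at least 50%, against 18.3% of all. Endosomal genes all had a peak, namely the Rab genes Rab5 and Rab7 and the sorting nexin genes Snx1, Snx3 and Snx6. Rab7, the late endosomal GTPase that recruits HOPS, was covered to 100%. Of 6 genes of autophagosome fusion and cargo, 5 had a peak and 3 were covered over at least 50%. The SNARE genes Snap29 and Vamp7 were covered to 100% and 92.8%, and their partner Syx17 to 27.8%. The cargo receptor gene ref(2)P, the fly p62, was covered to 71.3%, whereas bchs, at 15608 bp, had no peak. TSG101 of ESCRT-I was covered to 100%, whereas the ESCRT partners Hrs, Stam and ALiX were covered to 7.37%, 20.6% and 23.3%. Of the 4 partners of the phosphatidylinositol 3-kinase complex, 2 had a peak and 0 were covered over at least 50%. Among regulators of lysosomes, the transcription factor gene Mitf on chromosome 4 was covered to 11.5%, spin to 65.2% and Lamp1 to 28.3%, and the channel gene Trpml had no peak. The gene wac, which is counted among the 21 with a peak, entered that list by its symbol and encodes an augmin subunit in the fly. The longest partners without a peak were lt, bchs and scat.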

How the data were processed

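The only deposited file used is the authors' peak list for Oregon-R discs, called on antibody libraries against libraries without primary antibody, per the labels, and it holds peak boundaries and widths in bp. The submitters' processing notes give dm6 as the build and list, with no version or role, the authors' tools edgeR, Bowtie2, bedtools, deepTools and SAMtools. How peaks were called or replicates pooled is not given in these sources. Width was end minus start plus 1 in all 6914 peaks, so coordinates start at 1.

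Genes came from the RefSeq table of the same build. Covered share is the percentage of the body from start to end under peaks. Strand, exons and sequence were not used, so the planned promoter motifs and protein identities were not run. The code (Python 3.11.15, NumPy 2.4.6) was checked against per-base counting on 4000 simulated intervals, with 0 mismatches. The members and lists were chosen with earlier results of these data known, and no test was run. Any member could be named. The alternatives are given in the closing section.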

Additional observations from a re-analysis of the deposited data

How the results depend on the processing

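Of the 47 members, 36 had a peak (17 Atg, 19 Vps). The count was 27 (13 Atg, 14 Vps) when a peak's midpoint had to lie in the gene (57.4%, against 27.9% of all protein-coding genes), 34 (17 Atg, 17 Vps; 72.3%, against 35.8%) without the narrowest peaks and 39 (17 Atg, 22 Vps; 83%, against 43.5%) with 500 bp added at each end. It was 11 (4 Atg, 7 Vps) when at least 50% of the body had to be covered (23.4%, against 18.3%). With only peaks of at least the median width it was 23 (11 Atg, 12 Vps; 48.9%, against 28.4% of all protein-coding genes), and the median covered share of the members was then 0% in place of 16.6%. Among the 25 members that overlap no other gene it was 18 (72%, against 32% of all such genes), with 8 of 10 Atg and 10 of 15 Vps genes. With only peaks that touch no other gene, added after the data were seen, it was 19 (9 Atg, 10 Vps; 40.4%, against 17.9% of all). The Atg share exceeded the Vps share under all these settings except the 50% rule. No paired analysis was possible because the single list carries no value per library, and for the same reason no replicate could be left out. Depth is unknown, and the height of a peak is not in the list.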

Other observations

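Some members lie near each other on a chromosome. Atg1 and Vps13D are 15.8 kb apart on 3L, with 2 peaks in Atg1 and none in Vps13D. On 3R, Vps15, without a peak, lies 21.1 kb from Vps16A, which has 1, and Vps16B, with 1 peak, lies 10.8 kb from Atg16, which has none. All 5 members on X had a peak, against 42.1% of the protein-coding genes of X. On 3R, the arm with the most members, 12 of 17 had a peak, against 37.6% of the genes of that arm. The difference between arms was not tested.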
